A study of Mus musculus with 19 samples.

Results

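The 5 genes described here, Anks1b, Acy1, Ppp4r4, Enpp5 and Rflnb, were chosen by their lower RNA level in the striatum or prefrontal cortex of SCA17 knock-in mice than of wild-type (WT) mice. They are 5 of the 41128 genes counted, found by their GENCODE M21 gene name, and 5 of the 16841 genes that passed the filter on low counts. By value all 5 were lower in the knock-in striatum. The fit used here called 4 of them lower there. It called Rflnb lower in the prefrontal cortex and not in the striatum. Nothing is read from these calls. Because the striatal and prefrontal genotype contrasts chose the genes, the values of those contrasts are given as a description, with no test.

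The study compared the cerebellum, striatum and prefrontal cortex of C57BL/6 mice aged 3 months, by RNA sequencing of 19 libraries. Knock-in (KI) mice carried the Tbp-105Q allele, a long glutamine-coding repeat in the gene for the TATA-binding protein, which causes spinocerebellar ataxia type 17 in people. The allele was made germline by crossing floxed TBP mice with EIIa-Cre mice, so it is present in every cell type, and the controls were age-matched WT mice, called littermates by the study. The cerebellum gave 3 WT and 4 KI libraries, and the other 2 regions gave 3 libraries of each genotype apiece. Both sexes were used. Libraries were made from whole tissue with an amplification kit that does not mark strand.

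The 5 genes have unrelated functions. Anks1b encodes AIDA-1, an ankyrin-repeat scaffold of the postsynaptic density that binds PSD-95 and takes part in NMDA receptor trafficking. Acy1 encodes aminoacylase 1, a cytosolic enzyme that releases free amino acids from their N-acetylated forms. Ppp4r4 encodes a regulatory subunit of protein phosphatase 4, a serine/threonine phosphatase. Enpp5 is a member of the ENPP family of membrane-bound phosphodiesterases. Rflnb encodes refilin B, a small protein that binds filamins, which cross-link actin. The striatum consists mostly of inhibitory projection neurons that receive glutamate and dopamine input.

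In the GENCODE M21 annotation of GRCm38, Anks1b is the longest of the 5 genes, at chr10:89873509-90973300 on the plus strand with 14501 bases of exon. Acy1 lies at chr9:106432981-106438319 on the minus strand with 2966 bases of exon, and Ppp4r4 at chr12:103532283-103613831 on the plus strand with 4192. Enpp5 lies at chr17:44078813-44086567 on the plus strand with 4858 bases of exon, on the chromosome of the knock-in allele but 28.55 Mb from Tbp. Rflnb lies at chr11:76019194-76027782 on the minus strand with 3512 bases of exon. All are protein-coding, and none shares exon bases with another annotated gene.

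TBP binds the TATA box of promoters, so the promoter letters of these genes are shown. RefSeq windows from 250 bases before to 50 bases after a transcription start (build GRCm38.p6) matched 4 of the 5 genes, with 5 windows for Anks1b and 1 each for Acy1, Ppp4r4 and Rflnb. Enpp5 had no window. Capitals mark the letters GGGCGG or CCAAT on either strand (CCGCCC and ATTGG when read on the opposite strand). TATAAA was searched in the same way and was present in none of the 8 windows. The most upstream window of each gene follows, 5′ to 3′ on the gene's strand.
Anks1b, chr10:89873259-89873558 (+): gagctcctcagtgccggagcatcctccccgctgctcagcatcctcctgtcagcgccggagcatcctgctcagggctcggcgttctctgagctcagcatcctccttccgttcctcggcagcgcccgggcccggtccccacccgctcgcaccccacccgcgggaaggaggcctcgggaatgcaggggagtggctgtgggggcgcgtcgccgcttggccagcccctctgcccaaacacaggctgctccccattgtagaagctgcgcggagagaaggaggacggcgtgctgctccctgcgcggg
Acy1, chr9:106438187-106438486 (-): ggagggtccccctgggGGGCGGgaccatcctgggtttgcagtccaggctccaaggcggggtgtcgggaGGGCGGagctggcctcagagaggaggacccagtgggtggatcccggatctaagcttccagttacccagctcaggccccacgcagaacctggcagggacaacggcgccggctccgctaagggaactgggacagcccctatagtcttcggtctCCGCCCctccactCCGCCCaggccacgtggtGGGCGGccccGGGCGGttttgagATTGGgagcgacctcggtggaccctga
Ppp4r4, chr12:103532315-103532614 (+): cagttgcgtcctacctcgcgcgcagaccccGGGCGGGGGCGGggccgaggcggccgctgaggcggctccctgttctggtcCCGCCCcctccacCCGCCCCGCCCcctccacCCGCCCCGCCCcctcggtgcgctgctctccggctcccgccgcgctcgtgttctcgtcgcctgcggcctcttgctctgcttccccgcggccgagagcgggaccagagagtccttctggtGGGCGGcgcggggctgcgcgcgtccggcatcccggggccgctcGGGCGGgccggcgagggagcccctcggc
Rflnb, chr11:76027733-76028032 (-): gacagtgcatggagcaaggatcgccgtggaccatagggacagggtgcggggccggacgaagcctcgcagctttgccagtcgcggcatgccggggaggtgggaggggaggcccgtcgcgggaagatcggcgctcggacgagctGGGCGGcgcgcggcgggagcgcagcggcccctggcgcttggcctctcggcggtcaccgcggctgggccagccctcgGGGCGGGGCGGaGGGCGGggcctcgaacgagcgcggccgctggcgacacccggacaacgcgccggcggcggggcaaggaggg
The Acy1 window held 6 matches to GGGCGG over both strands and 1 to CCAAT, the Ppp4r4 window held 9 matches to GGGCGG, and the Rflnb window held 4. Neighbouring matches in Ppp4r4 and Rflnb partly overlap. The Anks1b window shown held none of the 3 motifs. Among its 4 internal windows, 2 near chr10:90829404-90829892 held GGGCGG and 1 held CCAAT. Of all 32851 mouse windows in the table, 35.7% held GGGCGG, 37.4% CCAAT and 13.6% TATAAA. For windows of genes tested here the shares were 58.5%, 37.1% and 7.61%. These matches are letters only, and no binding was measured.

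Each library held 10639110 to 17431284 counts (median 15082703). The 5 genes held between 74 counts (Rflnb, 1 KI prefrontal library) and 8824 counts (Enpp5, 1 WT striatal library). Levels are given as CPM, counts per 1000000 of the TMM-scaled library total, which may be compared between libraries. Levels of different genes are compared only per kb of exon. Tbp itself did not pass the test in any region, with log2 fold changes (KI over WT) of -0.14 (cerebellum), -0.12 (striatum) and -0.15 (prefrontal cortex). Marker genes matched the labelled regions. The summed level of 9 markers of striatal projection neurons was 5568 to 11940 CPM in striatal libraries and at most 1177 CPM in any other library. In the prefrontal cortex that sum was uneven, at 319 to 893 CPM in WT and 236 to 1177 CPM in KI. All 9 had positive log2 fold changes there (median 0.63), and none was called. The sum of 6 cortical excitatory neuron markers was at least 1238 CPM in prefrontal libraries and 16.4 to 235 CPM in striatal ones. The part of these signals in the levels of the 5 genes was not tested. A summed choroid plexus signal of 1504 to 8636 CPM was present in all striatal libraries and overlapped between genotypes. It also stood out in 1 WT cerebellar library (1897 CPM) and 1 KI cerebellar library (4762 CPM), against at most 33.0 CPM in the others of the cerebellum.

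**Figure D1:**
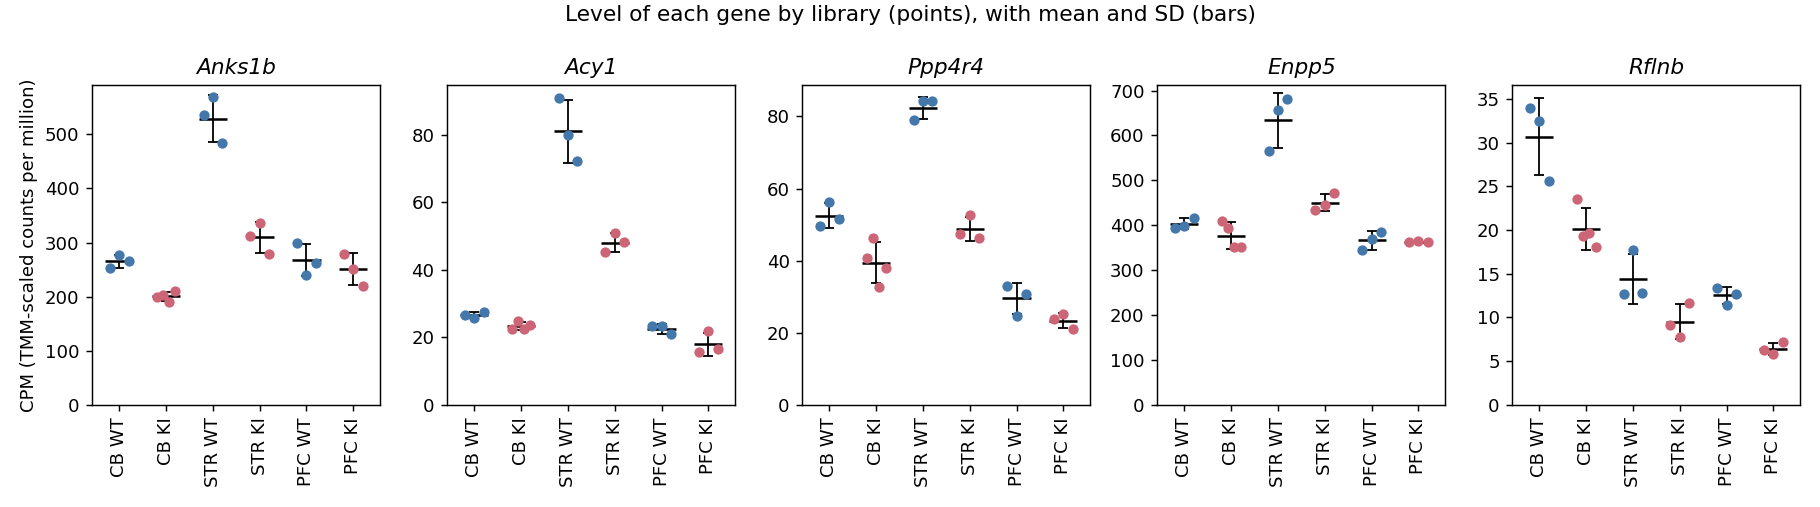
CPM of each gene in each of the 19 libraries (points, blue for WT and red for KI, with CB for cerebellum, STR for striatum and PFC for prefrontal cortex), with group mean and SD as black bars; all axes start at 0. In the striatum every KI point lies below every WT point for all 5 genes, and Rflnb alone is separated in the prefrontal cortex.

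In WT mice, 4 of the 5 genes were most abundant in the striatum and Rflnb was most abundant in the cerebellum. Anks1b was present in the WT striatum at 536, 568 and 483 CPM (mean 529 ± 43.0, SD, n = 3), in the WT prefrontal cortex at 299.7, 240.5 and 262 CPM, and in the WT cerebellum at 254, 277 and 265 CPM. Every striatal library was above every other WT library. The striatal mean was 1.98 times the prefrontal mean (log2 difference 0.98 ± 0.099, SE, adjusted p = 1.61e-06, edgeR quasi-likelihood test). The prefrontal cortex and cerebellum, next in order, did not differ beyond their spread (ratio 1.01, adjusted p = 0.926).

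Acy1 had the steepest regional gradient. Its WT level was 91.0, 79.9 and 72.3 CPM in the striatum, 26.5, 25.6 and 27.4 CPM in the cerebellum, and 23.4, 23.3 and 20.9 CPM in the prefrontal cortex. The striatal mean was 3.06 times the cerebellar mean (log2 difference 1.61 ± 0.117, adjusted p = 4.77e-09, edgeR). The cerebellar libraries all lay above the prefrontal ones, but the difference of 0.23 ± 0.117 on the log2 scale did not pass the test (adjusted p = 0.105).

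Ppp4r4 was the only one of the 5 genes for which all 3 regions differed by the test. WT levels were 78.9, 84.2 and 84.2 CPM in the striatum, 49.5, 56.3 and 51.5 CPM in the cerebellum, and 33.1, 24.8 and 30.7 CPM in the prefrontal cortex, with no overlap between regions. The striatal mean was 1.57 times the cerebellar mean (adjusted p = 0.000204), and the cerebellar mean was 1.78 times the prefrontal mean (adjusted p = 2.48e-05, edgeR).

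Enpp5 was the most abundant of the 5 per length. It reached 565, 656 and 681 CPM in the WT striatum, 394, 398 and 417 CPM in the cerebellum, and 344, 369 and 386 CPM in the prefrontal cortex. The striatal mean was 1.57 times the cerebellar mean (log2 difference 0.65 ± 0.0802, adjusted p = 2.67e-06, edgeR). Cerebellum and prefrontal cortex differed by 0.14 ± 0.0800 on the log2 scale, which did not pass the test (adjusted p = 0.163).

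Rflnb had its highest mean in the cerebellum and its lowest, like Acy1, Ppp4r4 and Enpp5, in the prefrontal cortex. Its WT level was 33.9, 32.5 and 25.6 CPM in the cerebellum, 12.6, 17.7 and 12.8 CPM in the striatum, and 13.4, 11.5 and 12.7 CPM in the prefrontal cortex. The cerebellar mean was 2.13 times the striatal mean (log2 difference 1.09 ± 0.170, adjusted p = 3.54e-05, edgeR). Striatal and prefrontal libraries overlapped, and their difference of 0.20 ± 0.171 did not pass the test (adjusted p = 0.423).

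Across all tested genes, 56.5% differed between WT cerebellum and WT striatum (28.7% lower and 27.8% higher in the cerebellum). The share was 52% between WT cerebellum and WT prefrontal cortex (25.1% higher in the cerebellum) and 30.5% between WT striatum and WT prefrontal cortex (14% higher in the striatum). Regional differences were thus common among all genes. The WT striatal and prefrontal libraries in these comparisons are the same libraries that entered the choice of genes, which favours high values in WT. The ratios of the KI means, from other libraries, had the same order at the top. The KI striatum held 1.24 times the KI prefrontal mean for Anks1b, 2.68 times for Acy1, 2.09 times for Ppp4r4 and 1.24 times for Enpp5, against 1.98, 3.60, 2.79 and 1.73 times in WT. For Rflnb the KI cerebellar mean was 2.11 times the KI striatal mean, against 2.13 times in WT. The KI striatal libraries also entered the choice of genes, which favours low values there.

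Per kb of exon, the order of the 5 genes in the WT striatum was Enpp5 (130.5 CPM per kb), Anks1b (36.5), Acy1 (27.3), Ppp4r4 (19.7) and Rflnb (4.09). In the WT cerebellum Rflnb, at 8.74 CPM per kb, and Acy1, at 8.94, were near one another and lowest of the 5.

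**Figure D2:**
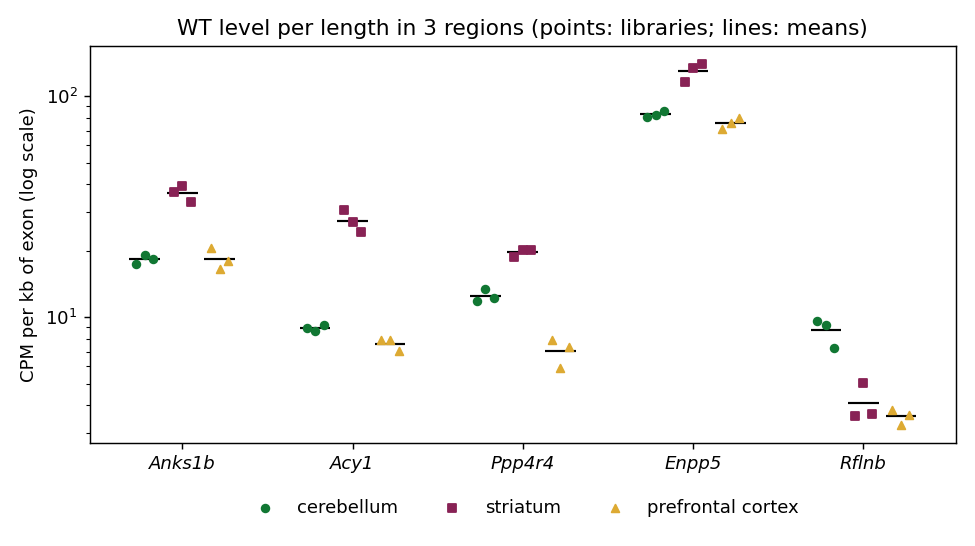
WT level of each gene per kb of exon (log axis) in the cerebellum (circles), striatum (squares) and prefrontal cortex (triangles); each point is 1 library and each line a mean of 3. The striatal points are highest for Anks1b, Acy1, Ppp4r4 and Enpp5, and the cerebellar points are highest for Rflnb.

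In the KI striatum all 5 genes were lower than in the WT striatum in every library. Anks1b was present at 313, 336 and 279.6 CPM in the KI striatum, below its WT range of 483 to 568 CPM, and the KI mean was 0.585 times the WT mean (log2 fold change -0.77 ± 0.0987, SE). Acy1 was present at 45.2, 50.9 and 48.1 CPM against 72.3 to 91.0 CPM in WT (log2 fold change -0.75 ± 0.114). Because whole tissue was sequenced, fewer cells of a type and less RNA per cell cannot be told apart.

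Ppp4r4 and Enpp5 showed the same separation of libraries. Ppp4r4 was present at 47.5, 52.6 and 46.3 CPM in the KI striatum against 78.9 to 84.2 CPM in WT (log2 fold change -0.76 ± 0.121). Enpp5 was present at 435, 445 and 471 CPM against 565 to 681 CPM in WT (log2 fold change -0.49 ± 0.0800). The mean of Enpp5 was 634 CPM in WT and 450.1 CPM in KI, the smallest log2 difference of the 5.

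Rflnb was present at 9.13, 7.77 and 11.7 CPM in the KI striatum against 12.6, 17.7 and 12.8 CPM in WT (log2 fold change -0.59 ± 0.173). The libraries did not overlap, though the highest KI and lowest WT libraries were close, and the SE was the widest of the 5 genes in this region.

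Of all tested genes, 0.19% (32 genes) were called lower in the KI striatum, and 8.46% had every KI library below every WT library (5.65% had every KI library above). The 4 genes Anks1b, Acy1, Ppp4r4 and Enpp5 were 4 of the 32. Ranked by the evidence for a lower level they stood at ranks 2 to 5 of 8666 genes with a negative fold change, and Rflnb stood at rank 125. Nothing is read from these counts, since they are how the genes were chosen.

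Markers of striatal projection neurons were also lower in the same libraries. Their summed level was 11750, 11940 and 10300 CPM in the WT striatum and 5568, 7954 and 6193 CPM in the KI striatum, with no overlap, and the ratio of means was 0.580. Of the 9 markers, 8 had every KI library below every WT library, with a median log2 fold change of -0.67 over the list against -0.01 over all tested genes. The test used 1 estimate of spread per gene over all 6 groups. The uneven prefrontal levels of these markers (summed, 318.6 to 893.1 CPM in WT) thus entered the striatal SE. None of the 9 log2 fold changes passed the test. The values ranged from -1.24 for Penk (preproenkephalin) through -1.02 for Pde10a (a phosphodiesterase of these neurons, adjusted p = 0.0542, edgeR) and -0.61 for Ppp1r1b (DARPP-32) to 0.04 for Tac1 (substance P precursor). The log2 fold changes of the 5 genes, -0.49 to -0.77, lay within that range. The part of projection neuron content in the lower level of the 5 genes was not tested. Summed markers of oligodendrocytes, astrocytes, microglia and endothelial cells overlapped between the genotypes in the striatum.

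**Figure D3:**
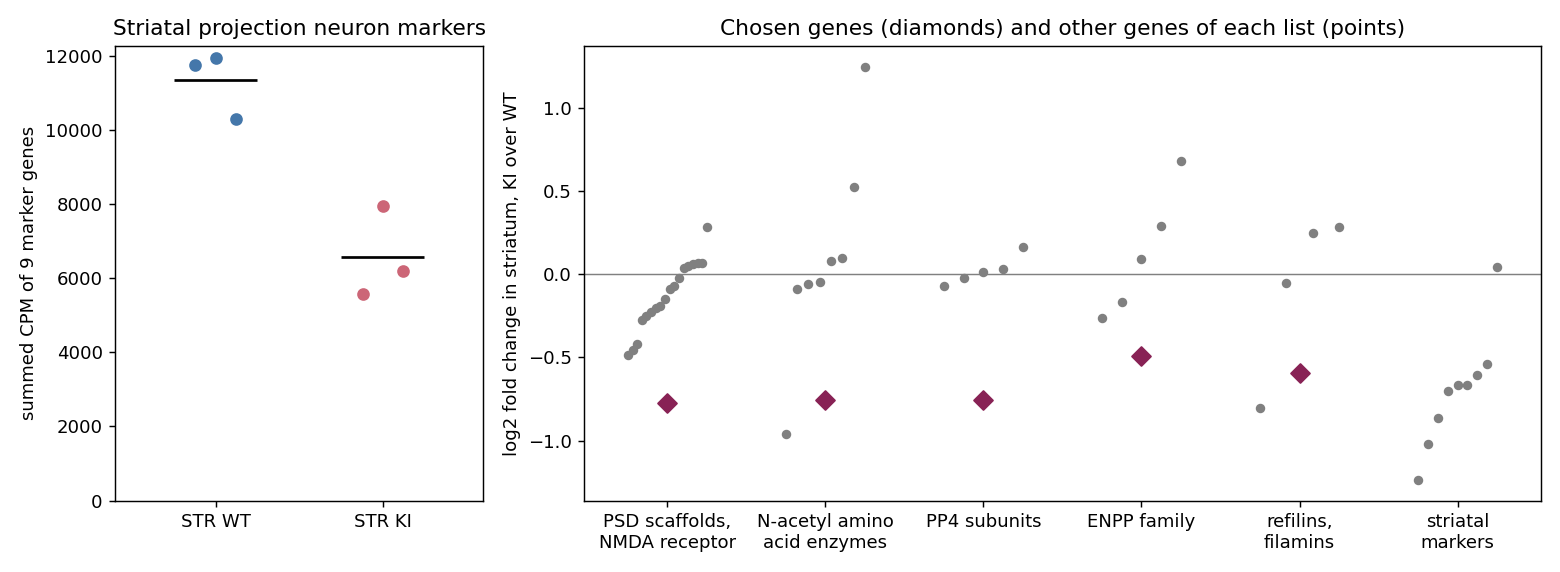
Left, summed CPM of 9 striatal projection neuron markers in the 3 WT and 3 KI striatal libraries (points, with means as lines; axis from 0); right, striatal log2 fold change (KI over WT) of the 5 chosen genes (diamonds) and of the other genes in the list each belongs to (points), with the 9 striatal markers at the far right. The KI libraries sum to 5568 to 7954 CPM against 10300 to 11940 CPM in WT, and the diamonds lie from -0.49 to -0.77.

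By the counts of X-inactivation and Y-linked transcripts, 1 of 3 KI and 2 of 3 WT striatal libraries were female, and the same held for the prefrontal cortex. With the ratio of these transcripts as a covariate, the striatal log2 fold changes were -0.83 for Anks1b, -0.80 for Acy1, -0.80 for Ppp4r4, -0.46 for Enpp5 and -0.50 for Rflnb. Each was thus close to the value without the covariate.

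In the prefrontal cortex, Rflnb stood apart from the other 4 genes. It was present at 6.24, 5.84 and 7.16 CPM in KI libraries and 13.4, 11.5 and 12.7 CPM in WT libraries, so the groups did not overlap and the KI mean was 0.512 times the WT mean (log2 fold change -0.97 ± 0.178). These levels rest on 74 to 196 counts a library. Rflnb was 1 of 3 genes called lower in this region (0.0178% of those tested), and 4.32% of all tested genes had KI libraries entirely below WT. That call was lost in each of the 6 fits that left out 1 prefrontal library, in which the log2 fold change lay between -1.05 and -0.91.

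The other 4 genes overlapped between genotypes in the prefrontal cortex. Acy1 was present at 15.5, 21.8 and 16.5 CPM in KI against 20.9 to 23.4 CPM in WT (log2 fold change -0.33 ± 0.119), and Ppp4r4 at 23.8, 25.3 and 21.1 CPM against 24.8 to 33.1 CPM (-0.33 ± 0.124). In both cases a single KI library, replicate 2, reached into the WT range. That library also had the highest summed striatal markers of the prefrontal libraries (1177 CPM). The WT library with the highest such sum, replicate 3 (893 CPM), had the lowest WT level of Acy1 (20.9 CPM). The part of this striatal signal in the prefrontal values was not tested. Anks1b ranged from 220.5 to 279 CPM in KI and 240.5 to 299.7 CPM in WT (-0.09 ± 0.0985). Enpp5 was nearly level, at 363, 364 and 363 CPM in KI and 344 to 386 CPM in WT (-0.01 ± 0.0800).

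The cerebellar genotype contrast was not part of the rule that chose the genes and was tested. The choice was made with earlier results of these data known, so this test is not blind to them. All 5 genes had negative log2 fold changes there, 4 had every KI library below every WT library, and only Anks1b passed the test. Over all tested genes the median log2 fold change was 0.01, 0.315% were called lower, and 6.47% had KI libraries entirely below WT. Mice of 1 KI line supplied all 3 regions, and the labels do not say which libraries came from the same mouse.

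Anks1b was present at 199, 203, 190.1 and 209.9 CPM in the KI cerebellum and at 254, 277 and 265 CPM in the WT cerebellum. The 4 KI libraries all lay below the 3 WT libraries, and the gene fell by 0.40 on the log2 scale (SE 0.0917, adjusted p = 0.0479, edgeR quasi-likelihood test). The call was close to the threshold: it was lost in each of the 7 fits that left out 1 cerebellar library, with adjusted p from 0.0635 to 0.234, while the log2 fold change stayed between -0.43 and -0.37.

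Rflnb had the largest cerebellar difference of the 5 genes. Its level was 23.6, 19.3, 19.6 and 18.0 CPM in KI libraries and 33.9, 32.5 and 25.6 CPM in WT libraries, which did not overlap (log2 fold change -0.61 ± 0.155, adjusted p = 0.0836, edgeR). Ppp4r4 was present at 40.6, 46.3, 32.7 and 38.1 CPM against 49.5 to 56.3 CPM (-0.41 ± 0.113, adjusted p = 0.120). Neither passed in any edgeR setting or in any of the 7 fits without 1 library. Both passed with DESeq2 (adjusted p = 0.0106 for Rflnb and 0.0326 for Ppp4r4). DESeq2 called 161 genes lower in this region, against 53 in the main edgeR fit.

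Acy1 and Enpp5 had the smallest cerebellar differences. Acy1 was present at 22.4, 24.9, 22.6 and 23.7 CPM in KI and 25.6 to 27.4 CPM in WT (-0.18 ± 0.109, adjusted p = 0.635), without overlap. Enpp5 was present at 351 to 409.9 CPM in KI and 394 to 417 CPM in WT (-0.10 ± 0.0747, adjusted p = 0.741, edgeR), with overlap.

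Cell markers also moved in the cerebellum. The summed level of 8 granule and Purkinje cell markers was 6607 to 7112 CPM in WT and 4760 to 6041 CPM in KI libraries, and 1 of the 8 was called lower. This was Pcp2, of Purkinje cells (log2 fold change -1.16, adjusted p = 0.000196, edgeR). The others ran from -0.57 for Car8 to 0.05 for Gabra6, of granule cells. Car8 (mean 2338 CPM in WT, 1575 CPM in KI) and Calb1 (1987 and 1404 CPM), both of Purkinje cells, weighed most in the sum. Per kb of exon, Gabra6 (503.6 CPM per kb in the WT cerebellum) stood above Calb1 (410.1). The summed level of 6 microglial markers was 75.7 to 78.3 CPM in WT and 106 to 151 CPM in KI, and 4 of the 6 were called higher, against 0.517% of all tested genes. Their part in the cerebellar values of Anks1b, Ppp4r4 and Rflnb was not tested. The libraries with the high choroid plexus signal, KI replicate 3 and WT replicate 1, were lowest of their groups for Anks1b, Ppp4r4 and Enpp5. That did not hold for Acy1 and Rflnb. Without KI replicate 3 the Ppp4r4 log2 fold change was -0.33, the smallest difference of its 7 fits without 1 library. The part of the choroid plexus signal was not tested.

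**Figure D4:**
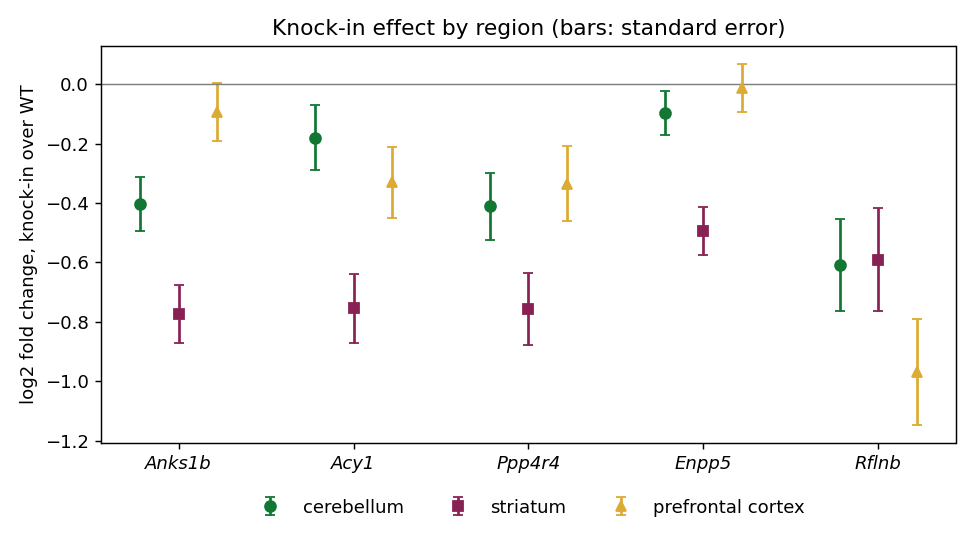
Log2 fold change (KI over WT) of each gene in the cerebellum (circles), striatum (squares) and prefrontal cortex (triangles), with SE bars from the fit over 19 libraries; a value of 0 is no difference. Anks1b, Acy1, Ppp4r4 and Enpp5 are lowest in the striatum (-0.49 to -0.77), and Rflnb is lowest in the prefrontal cortex (-0.97).

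The differences of the genotype effect between regions are given as values. The striatal log2 fold change minus the prefrontal one was -0.68 ± 0.139 for Anks1b, -0.42 ± 0.165 for Acy1, -0.42 ± 0.173 for Ppp4r4, -0.48 ± 0.113 for Enpp5 and 0.38 ± 0.248 for Rflnb. The cerebellar log2 fold change minus the striatal one was 0.37 ± 0.135 for Anks1b, 0.57 ± 0.158 for Acy1, 0.35 ± 0.165 for Ppp4r4, 0.40 ± 0.110 for Enpp5 and -0.02 ± 0.235 for Rflnb. No test is given for these differences because they contain the contrasts that chose the genes.

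Across the wider gene families of the 5, 1 gene was called in a KI effect. For Anks1b, 18 other genes of postsynaptic scaffolds and NMDA receptor subunits were tested, and none was called in any region by edgeR. In each region 12 of the 18 had negative log2 fold changes, with medians of -0.18 (cerebellum), -0.12 (striatum) and -0.06 (prefrontal cortex). The most abundant per length were Dlgap3 (a striatum-rich scaffold, -0.46 ± 0.115 in the striatum, adjusted p = 0.105), Dlgap1 (-0.19), Dlg3 (encoding SAP102, -0.20) and Grin1 (the obligatory NMDA receptor subunit, -0.25).

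For Acy1, 8 other genes that make or break N-acetylated amino acids were tested. Acy3, aminoacylase 3, was the only one called: it was higher in the KI striatum, with 4.18 to 7.40 CPM against 2.08 to 3.01 CPM in WT (log2 fold change 1.25 ± 0.260, adjusted p = 0.0325, edgeR), the opposite direction to Acy1. The background of genes called higher in the striatum was 0.392%. Without each striatal library in turn, 5 of 6 fits lost the Acy3 call, with adjusted p up to 0.225. Nat8l, which makes N-acetylaspartate (-0.09), Folh1, which cleaves N-acetylaspartylglutamate (0.52), Aspa, which cleaves N-acetylaspartate (-0.05), and Rimkla, a synthetase (0.08), were not called in the striatum.

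For Ppp4r4, the catalytic subunit Ppp4c and the regulatory subunits Ppp4r1, Ppp4r2, Ppp4r3a and Ppp4r3b had striatal log2 fold changes from -0.07 to 0.16, and none was called in any region. Ppp4r4 was also the family member with the clearest WT gradient: Ppp4c stood at 15.5, 15.1 and 12.7 CPM per kb in the WT cerebellum, striatum and prefrontal cortex, where Ppp4r4 stood at 12.5, 19.7 and 7.04.

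For Enpp5, 5 of 6 other ENPP genes were tested and none was called in any region. Enpp4, its neighbour on chromosome 17 at a gap of 9.74 kb, had a striatal log2 fold change of -0.26 ± 0.159. Enpp6, of maturing oligodendrocytes, was at 0.68 and Enpp1 at 0.29. Enpp2, which encodes autotaxin and is abundant in choroid plexus, was at -0.17 with an SE of 1.06. For Rflnb, the refilin and filamin genes Flna, Rflna and Flnc were not called in any region. Flna had a striatal value of 0.25. The paralog Rflna had striatal and prefrontal values of -0.80 ± 0.603 and -0.79, at a WT level of only 0.393 and 0.639 CPM per kb, and Flnc was lower still.

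The genes nearest to the 5 on their chromosomes were not called in the striatum or prefrontal cortex. In the striatum Abhd14a, 1.73 kb from Acy1, had a log2 fold change of 0.84 (adjusted p = 0.158), and Rpl29, 1.41 kb on the other side, had 1.26 (adjusted p = 0.105, edgeR). Rpl29, a ribosomal protein gene, was called higher in the KI cerebellum (1.55 ± 0.319, adjusted p = 0.0244), the opposite sign to Acy1. Uhrf1bp1l and Apaf1 beside Anks1b, Rcan2 beside Enpp5, and Vps53 and 1700016K19Rik beside Rflnb had striatal values from -0.19 to 0.11. Beside Ppp4r4, Serpina9 had -0.45 ± 0.556, at mean levels of 101.3 CPM in the WT and 74.08 CPM in the KI striatum. The sparsely counted Ifi27l2b had -2.55 ± 0.757, at 0.85 and 0.137 CPM.

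Over the 19 libraries, the genes whose log2 CPM was most like that of each member were found by Pearson's r, as a description over points that share region, genotype and library. For Anks1b they were Camk2b (r = 0.948), Slit3 (0.910) and Cplx2 (0.908). For Acy1 they were Ivns1abp (0.969), Gnb5 (0.959) and Bag5 (0.954), and for Enpp5 they were Xxylt1 (0.955), Rrp1b (0.933) and again Bag5 (0.926). For Ppp4r4 they were Tmem41a (0.931), Neto2 (0.925) and Tbc1d8 (0.924). For Rflnb they were Fiz1 (0.937) and Kdm6a (0.931), after the scarcely counted B230206H07Rik (0.942). Camk2b, a calcium/calmodulin-dependent kinase subunit, had mean levels of 1427 CPM in the WT striatum and 1064 CPM in the KI striatum. Neto2, an auxiliary subunit of kainate receptors, went from 160.4 to 94.1 CPM. Part of these striatal falls was fixed by likeness to genes chosen for such a fall, and nothing is read from them.

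Among themselves, Anks1b, Acy1, Ppp4r4 and Enpp5 had r between 0.712 and 0.909 over the 19 libraries, and Rflnb had r between -0.143 and 0.444 with them. After the mean of each of the 6 groups was subtracted, the pairs spread from -0.319 to 0.618, the highest being Anks1b with Ppp4r4. Part of the likeness of the first 4 genes over the group means was fixed by their choice for a lower level in the KI striatum, and nothing is read from it. After that subtraction the most similar other gene was D430036J16Rik for Anks1b (0.886), Ttc34 for Ppp4r4 (0.833), Thap12 for Enpp5 (0.893) and Gchfr for Rflnb (0.865).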

How the data were processed

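RNA was sequenced from 3 brain regions of KI and WT mice in 19 libraries, made with the SMART-Seq v4 and Nextera XT kits. The authors deposited a table of raw read counts per Ensembl gene and a second table with a signal per gene, the same counts divided by 1 size factor per library. The submitters' processing notes list bcl2fastq 2.17.1.14, STAR 2.5.2b, HTSeq, DESeq2 1.10.1 and the build GRCm38.p3, without stating their order. Strand use and the counting annotation are not given in the sources used here. Gene names, positions and exon lengths were taken from GENCODE M21, which has an entry for 40254 of the 41128 identifiers. Promoter windows were taken from RefSeq.

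Counts were analysed with edgeR 4.0.16 in R 4.3.3. One quasi-likelihood fit over 6 groups of region and genotype used filterByExpr (16841 genes), TMM scaling and 13 residual degrees of freedom, with a common biological coefficient of variation of 0.191. Benjamini-Hochberg adjustment ran over all genes of the fit, with a threshold of 0.05. SE is the log2 fold change divided by the root of the test's F. Log2 CPM used a prior count of 2. The deposited signal table was used for the ratios of means alone. The labels do not say whether libraries with the same number in different regions came from 1 mouse, so p values measure the spread between libraries. Scripts were tested on simulated data. No counting intervals were used, as reads lacked molecular identifiers.

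Named were the 5 genes, the genes of each family list called in a KI effect with the 4 most abundant per kb, the 3 most correlated genes under each measure (of the second measure the first is given), and the nearest tested gene on each side. The members and all lists were chosen with earlier results of these data known. Anks1a was not analysed here, and 2 of the genes so named are not reported here.

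Same-numbered striatal and prefrontal libraries deviated together from their group means (6 pairs, r from 0.233 to 0.368, against -0.253 to -0.0758 in 12 pairs of unlike number). The numbers may thus pair these regions, which the labels do not state. They do not all pair the cerebellum. By the log2 ratio of X-inactivation to Y-linked transcripts, KI replicate 1 was female in the cerebellum (8.27) and male in the striatum (-9.89). WT replicates 1 and 3 also differed in sex between these regions. A replicate block across all 3 regions, among the other settings run, thus joined some libraries of unlike sex. The main fit used group means only. Its p values for striatum against prefrontal cortex, and the SEs of the striatal minus prefrontal effects, leave such pairing out. The numbers did not pair KI with WT libraries.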

Additional observations from a re-analysis of the deposited data

Results flagged for a closer look

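Homer3, a postsynaptic scaffold abundant in the cerebellum and named here after its values were seen, had genotype differences of opposite sign in 2 regions. In the cerebellum its log2 fold change was -0.43 (89.9 to 127 CPM in 4 KI libraries against 137 to 157 CPM in 3 WT libraries). In the striatum it was 0.29 (4.77 to 6.01 CPM in 3 KI libraries against 4.33 to 4.68 CPM in 3 WT libraries). The libraries did not overlap in either region. The difference between the regions was -0.72 ± 0.221 on the log2 scale and did not pass the test over all genes (adjusted p = 0.463, edgeR quasi-likelihood test).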

How the results depend on the processing

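For the 5 genes, 126 of 130 tested values under other settings, and 116 of 125 with 1 library left out, kept their direction and their side of the threshold. This tally pools WT regional contrasts with the cerebellar genotype contrast. The 7 values that lost a call with 1 library left out were all those of Anks1b in the KI cerebellum, its only tested genotype call. The striatal and prefrontal genotype values carry no test, and of these 69 of 70 and 59 of 60 kept their direction and moved by less than 1 SD. The striatal calls of Anks1b, Acy1 and Ppp4r4 were made in all 7 other settings and all 6 fits without 1 library, and that of Enpp5 in 6 and 6, not with the striatum fitted alone. Nothing is read from this tally, since the same contrast and libraries chose the genes. The prefrontal call of Rflnb was lost with the region fitted alone, with the replicate block and in all 6 fits without 1 library. All 30 ratios of means kept their direction in the deposited normalized table. The Anks1b call in the cerebellum was lost with no filter beyond 1 count (adjusted p = 0.0566). Anks1b in WT cerebellum against WT prefrontal cortex reversed to 0.0018 with no filter, and to 0.019 and 0.0758 without 1 library (range -0.0843 to 0.0758). Enpp5 in the prefrontal cortex reversed to 0.0149 with the sex ratio as a covariate and to 0.0276 without WT replicate 3 (range without 1 library -0.0547 to 0.0276). Acy3 in WT cerebellum against striatum reversed to -0.1373 without 1 cerebellar WT library (range to 0.2925), and its striatal call was lost with the sex ratio (adjusted p = 0.0534), with the striatum fitted alone (0.171) and with the replicate block (0.0933). The cause of these changes was not tested.

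Counts of called genes moved more. In the main analysis 87 genes were higher and 53 lower in the KI cerebellum, 66 and 32 in the striatum, and 15 and 3 in the prefrontal cortex. DESeq2 gave 175 and 161, 112 and 102, and 33 and 19. With each region fitted alone, from fewer libraries, 88 were lower in the cerebellum, 31 higher and 15 lower in the striatum, and 0 and 0 in the prefrontal cortex. Leaving out 1 library at a time gave 48 to 94 higher and 23 to 64 lower in the cerebellum, 29 to 77 and 6 to 44 in the striatum, and 4 to 15 and 1 to 2 in the prefrontal cortex. A count moved by over 1.5 times without WT replicate 2 or 3 in the cerebellum, without any WT library or KI replicate 1 or 3 in the striatum, and likewise in the prefrontal cortex. The fewest lower genes came without WT replicate 2, in the cerebellum (23) as in the striatum (6). Counts of regional WT differences stayed within 1.5 times the main count under every alternative run.

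KI and WT libraries shared only a number: 2 of 9 same-numbered pairs had a correlation above 0.1 (range -0.245 to 0.172). The replicate block within regions gave 42 genes higher in the striatum, and 8 higher and 1 lower in the prefrontal cortex. With the replicate block Anks1b stayed called in the cerebellum (-0.43, adjusted p = 0.0294, edgeR). That block joins KI and WT libraries by number alone. KI replicate 4 has no WT library of its number, so it does not enter the difference. Nothing is read from this call. A replicate block over striatum and prefrontal cortex, chosen after seeing the data, changed no regional call of the 5 genes (Anks1b 0.99, Rflnb 0.19). Depth limits Rflnb most, at 74 counts in 1 library.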
